A study of Mus musculus with 5 samples.

Results

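Fibroblasts of the meninges, the connective sheath around the central nervous system, deposit small leucine-rich proteoglycans and other matrix proteins and make retinoic acid. The genes described here are *Dcn*, *Lum*, *Ogn*, *Ptgds*, *Mgp*, *Crabp2*, *Aldh1a2*, *Fbln1*, *Dpt* and *Prg4*. These 10 genes were listed by name as proteoglycan and retinoid genes of the nerve sheath outside the collagens, by a rule that uses no measured value. The list was nevertheless drawn up with earlier results of these data known. The array carries 15 probe sets for them, of 34945 that name 1 gene and 45101 in all. Every member passed a filter on low signals, and so did all 15 of its probe sets. The members are 10 of 12945 genes tested.

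C57BL/6 optic nerves, taken between P35 and P45, spent 3 days in organotypic medium with LY294002, a drug that blocks PI3K. RNA of the whole nerves was measured on Affymetrix GeneChip mouse arrays. By the labels, the 3 L-LY29 arrays held nerves given 0.5 µM LY294002 and the 2 H-LY29 arrays nerves given 50 µM, and some label entries spell the drug LY295002. The paper gives another L-LY29 dose for adult nerves than the labels, and which of them these arrays received was not settled here. Control arrays are not analysed here, so each comparison sets the lower labelled dose against the higher one, and every difference is a log2 signal in L-LY29 less that in H-LY29. By the methods, arachnoid was cleaned off the nerves before culture, and nerves were removed with the retina attached. The sources used here do not say which nerves or mice went to which array. The p-values therefore measure only the spread between these arrays, which may be technical.

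The arrays of the doses stood apart in ways other than dose. Bacterial poly-A RNAs, which are added before labelling, had a mean log2 signal of 9.97 to 10.45 on the L-LY29 arrays and of 3.17 on both H-LY29 arrays, so preparation and dose cannot be told apart. For actin the 3′ signal exceeded the 5′ signal by 0.39 to 0.48 in L-LY29 but by 0.84 to 0.99 in H-LY29. The median signal of an array was between 5.32 and 5.34 at the lower dose and between 5.54 and 5.56 at the higher. The median difference of all genes tested was −0.26. The labelled tissue was checked with markers of myelinating oligodendrocytes (MOLs), of which 12 were measured. Their linear signals summed to a log2 value of 16.40 to 16.46 in L-LY29 and of 16.01 to 16.08 in H-LY29. *Mbp* made up 24.3% to 25.8% of this sum. Its L-LY29 mean of 14.41 lay near the highest signal on any array, 14.45, so the gap between the doses is not read as a size.

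Of the 10 members, 9 had a lower signal in L-LY29 and *Ogn* had a higher one, each at an adjusted p under the threshold of 0.05. Over all genes tested, 73.8% were called, 46.6% as lower and 27.1% as higher. *Prg4* had the widest difference of the members, −5.37, and the other members that were lower lay between −2.26 (*Crabp2*) and −1.002 (*Dcn*). The median of the members was −1.92. For each member the L-LY29 arrays lay all below or all above both H-LY29 arrays. Over all genes the doses did not overlap for 83.1%, with every L-LY29 array below both H-LY29 arrays for 51.8% and above them for 31.3%. In RNA of whole nerves, fewer cells of a type and less RNA per cell cannot be told apart.

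**Figure D1:**
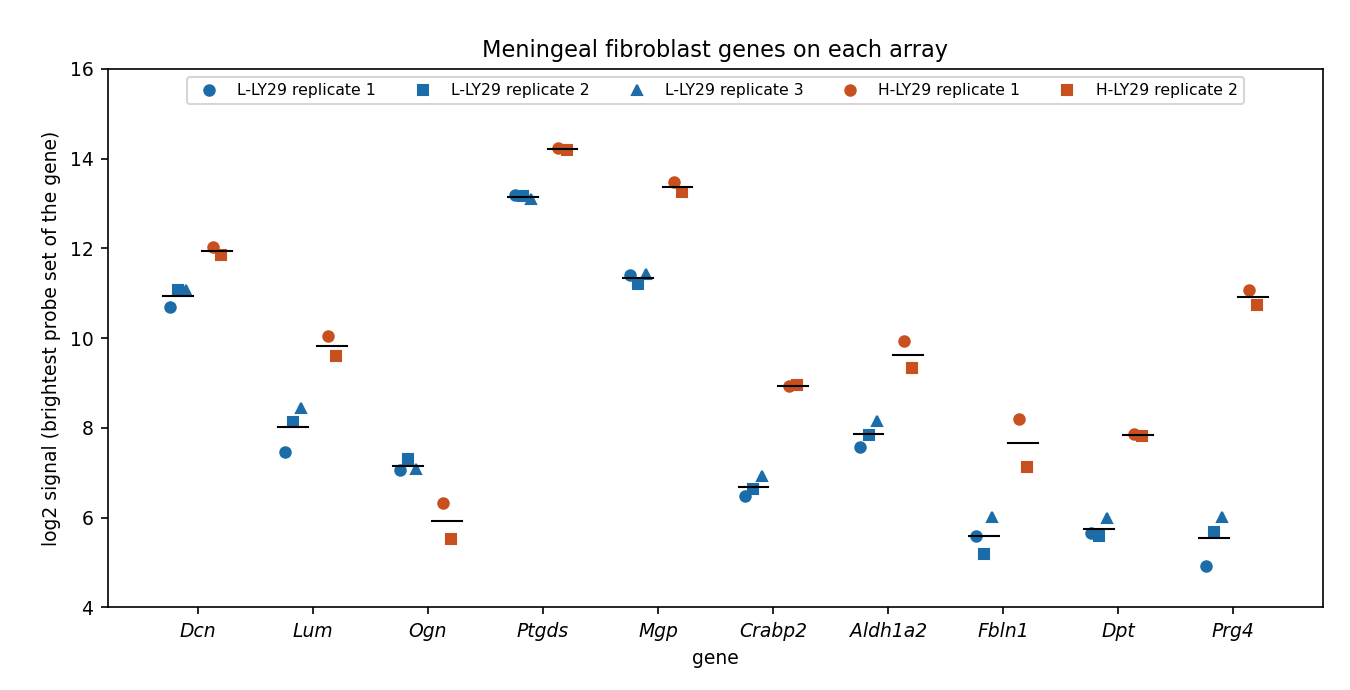
Log2 signal of the 10 member genes (x axis) on each of the 3 L-LY29 (blue) and 2 H-LY29 (orange) arrays, for the brightest probe set of each gene, and a black line at each dose's mean. The H-LY29 arrays are above all L-LY29 arrays for 9 genes and below them for *Ogn*, and *Prg4* shows the widest gap, from 5.54 to 10.91.

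Promoter sequences of RefSeq, from 250 bases before to 50 after an annotated start on GRCm38.p6, were matched for 5 of the members, *Ogn*, *Ptgds*, *Aldh1a2*, *Fbln1* and *Dpt*. The 3 shown here, to set the member that was higher beside others, are those that hold a searched motif (*Ogn*, higher, and *Ptgds* and *Dpt*, lower), 5′ to 3′ on the strand of the gene. The intervals are chr13:49607765-49608064 (plus strand) for *Ogn*, chr2:25469700-25469999 (minus strand) for *Ptgds* and chr1:164796413-164796712 (plus strand) for *Dpt*. Capitals mark the letters that matched a searched motif, on either strand.
Ogn: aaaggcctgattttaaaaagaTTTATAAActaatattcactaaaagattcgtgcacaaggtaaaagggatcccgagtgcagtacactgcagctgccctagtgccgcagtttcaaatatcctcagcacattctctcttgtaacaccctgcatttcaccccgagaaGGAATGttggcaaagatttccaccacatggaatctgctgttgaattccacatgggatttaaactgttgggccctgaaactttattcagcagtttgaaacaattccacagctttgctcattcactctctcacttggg
Ptgds: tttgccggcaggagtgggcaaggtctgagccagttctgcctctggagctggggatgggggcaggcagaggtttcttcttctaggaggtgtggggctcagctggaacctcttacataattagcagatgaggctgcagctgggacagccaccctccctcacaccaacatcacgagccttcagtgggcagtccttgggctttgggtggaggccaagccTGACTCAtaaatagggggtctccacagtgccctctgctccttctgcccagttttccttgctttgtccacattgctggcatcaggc
Dpt: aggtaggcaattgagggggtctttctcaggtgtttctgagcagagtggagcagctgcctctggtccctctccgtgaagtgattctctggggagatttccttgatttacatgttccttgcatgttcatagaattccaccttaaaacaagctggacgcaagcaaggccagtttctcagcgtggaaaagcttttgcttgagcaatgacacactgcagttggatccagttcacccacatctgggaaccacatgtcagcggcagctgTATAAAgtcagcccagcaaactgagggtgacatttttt
The TATA box, TATAAA, was found in the promoters of *Ogn* and *Dpt* and in 13.6% of the 32851 promoters of that length. In *Ogn* its 2 matches, 1 on each strand, overlap far before the start site. In *Dpt* it lies just after the annotated start. The AP-1 motif, TGANTCA, was found in *Ptgds* and in 7.81% of all promoters. The TEAD motif, CATTCC, was found on the minus strand in *Ogn* and in 14.7% of all. The FoxO motif, GTAAACA, was in none of the 6 promoters of the members and in 3.65% of all. A match describes the letters of these windows and not a bound site.

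Decorin (*Dcn*), lumican (*Lum*) and osteoglycin (*Ogn*) are small leucine-rich proteoglycans that bind collagen fibrils and shape their assembly. *Dcn* had a log2 signal of 10.70, 11.07 and 11.07 on L-LY29 replicates 1, 2 and 3, and of 12.03 and 11.86 on H-LY29 replicates 1 and 2. Every L-LY29 array was below both H-LY29 arrays, with means of 10.94 ± 0.21 (SD, n = 3 arrays) and 11.95 ± 0.13 (SD, n = 2). The difference was −1.002 (standard error 0.14, limma adjusted p = 0.00197), a signal 2.002-fold higher in H-LY29. The second probe set of *Dcn* had a signal of 4.22, 4.20 and 4.39 in L-LY29 and of 7.13 and 7.10 in H-LY29. Its difference of −2.84 (standard error 0.10, adjusted p = 1.43e-04 over all probe sets) had the same direction and was wider. Its L-LY29 values were about as low as the brightest poly-A probe set on the H-LY29 arrays, which reached 4.30, so the size is not read as a fold. They were also under the value of the filter on low signals, 4.76, which this probe set passed only through H-LY29.

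*Lum* had a log2 signal of 7.46, 8.13 and 8.43 in L-LY29 and of 10.06 and 9.59 in H-LY29. The doses did not overlap, and replicate 1 was the lowest L-LY29 array. The difference was −1.81 (standard error 0.33, adjusted p = 0.00501), larger than the spread within either dose. Without H-LY29 replicate 1 it was −1.58 and no longer passed, at an adjusted p of 0.0770.

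*Ogn* went the other way. Its signal was 7.06, 7.32 and 7.08 in L-LY29 and 6.32 and 5.51 in H-LY29. The L-LY29 arrays lay close together above both H-LY29 arrays, which differed from each other by 0.81. The difference was 1.24 (standard error 0.26, adjusted p = 0.00943). In the fit over all probe sets the adjusted p was 0.0158, and there the call was lost with the replicate block, in the methods' unpaired test and without any one L-LY29 array, at 0.0517 to 0.0758. The second probe set of *Ogn* had a signal of 5.83, 6.34 and 6.00 in L-LY29 and of 5.83 and 4.69 in H-LY29. There L-LY29 replicate 1 and H-LY29 replicate 1 had equal values, and the difference of 0.80 (standard error 0.39, adjusted p = 0.144 over all probe sets) did not pass.

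*Dcn* and *Lum* are neighbours on chromosome 10, followed by *Kera* (keratocan), and *Ogn* lies beside *Omd* (osteomodulin) on chromosome 13, by the gene order of GRCm38.p6. *Kera*, *Omd*, *Aspn*, *Ecm2* and *Epyc*, relatives of the same family, did not pass the filter on low signals. *Omd* had a signal of 4.86, 4.94 and 4.97 in L-LY29 and of 4.15 and 3.40 in H-LY29, higher in L-LY29 by 1.15 (standard error 0.24, adjusted p = 0.0136 over all probe sets). Its H-LY29 values were no brighter than the brightest poly-A probe set there. *Kera* passed the test too, at 0.62 (standard error 0.15, adjusted p = 0.0207 over all probe sets), on signals of only 2.43 to 3.32. *Aspn* and *Ecm2* had signals of 2.21 to 3.11 on all arrays and no probe set that passed, and *Epyc*, at 4.29 to 4.90, did not pass either. *Bgn* (biglycan), the closest relative of decorin, was lower on each of its 3 probe sets, at −1.30, −1.02 and −2.29 (adjusted p = 0.00575, 0.00170 and 0.00237 over all probe sets). As a gene, on its brightest probe set, it did not pass without H-LY29 replicate 1 or 2 (adjusted p = 0.0502 and 0.0543). Biglycan and decorin had the same direction, opposite to that of osteoglycin.

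Retinoic acid is made from retinaldehyde by *Aldh1a2*, and *Crabp2* encodes a carrier that brings it to its nuclear receptors. *Aldh1a2* had a log2 signal of 7.56, 7.84 and 8.16 in L-LY29 and of 9.93 and 9.33 in H-LY29. The doses were apart by more than 1 log2 unit, and the difference was −1.78 (standard error 0.25, adjusted p = 0.00212), a signal 3.43-fold higher in H-LY29. *Crabp2* had a signal of 6.48, 6.64 and 6.92 in L-LY29 and of 8.93 and 8.95 in H-LY29. Its H-LY29 arrays agreed to within 0.02, and the difference was −2.26 (standard error 0.15, adjusted p = 1.64e-04). *Crabp1*, the other cellular retinoic acid binding protein, did not pass the filter. Its signal of 3.65 to 3.72 in L-LY29 and of 5.46 and 6.53 in H-LY29 was lower in L-LY29 (adjusted p = 0.00407 over all probe sets). The L-LY29 values were under the brightest poly-A probe set of the H-LY29 arrays, so no size is read.

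The other aldehyde dehydrogenases of this step went the other way or did not pass. *Aldh1a1* was higher in L-LY29, with 11.32, 11.13 and 11.42 against 10.71 and 10.65 in H-LY29, a difference of 0.61 (standard error 0.10, adjusted p = 0.00311). Without H-LY29 replicate 2 it was 0.58 at an adjusted p of 0.0512. The brightest probe set of *Aldh1a3* was at 0.59 (standard error 0.24, adjusted p = 0.0761), and it passed with quantile normalization, with equal array medians, with the replicate block and without H-LY29 replicate 1.

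Of 28 other retinoid genes, 20 were tested, 11 of them lower, 3 higher and 6 not called, with a median of −0.48 against −0.26 for all genes. The shares of 55.0% lower and 15.0% higher compare with 46.6% and 27.1% over all genes. Lower were *Stra6*, the receptor through which cells take up retinol, at −3.64 (standard error 0.29, adjusted p = 2.73e-04), *Cyp26b1*, which degrades retinoic acid, at −2.27 (standard error 0.24, adjusted p = 7.11e-04), and *Rdh5*, a retinol dehydrogenase, at −2.26 (standard error 0.19, adjusted p = 3.46e-04). *Cyp1b1*, a cytochrome that also oxidises retinol, was at −5.14 (standard error 0.54, adjusted p = 7.06e-04), with L-LY29 arrays that spread by 1.77. The receptor *Rxra* was at −2.03 (standard error 0.16, adjusted p = 2.60e-04) on its brightest probe set, while another of its 3 probe sets was higher, so its direction depends on the probe set. Higher with *Aldh1a1* were *Fabp5*, a fatty acid carrier that also binds retinoic acid, at 0.38 (standard error 0.07, adjusted p = 0.00435), and the retinol transport protein *Ttr*, at 0.73 (standard error 0.23, adjusted p = 0.0357). *Ttr* did not pass in the methods' unpaired test, without H-LY29 replicate 2 or without any one of the L-LY29 arrays. In the fit over probe sets none of its 4 probe sets was called higher and 1 was lower.

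*Ptgds* encodes the lipocalin-type synthase of prostaglandin D2, which oligodendrocytes make as well as the meninges. Its brighter probe set had a log2 signal of 13.19, 13.18 and 13.11 in L-LY29 and of 14.24 and 14.20 in H-LY29. The arrays of each dose agreed closely, and the difference was −1.06 (standard error 0.04, adjusted p = 4.84e-05). The H-LY29 values lie near the highest signal on any array, 14.45, so the size is not read as a fold. The other probe set had a signal of 12.0938, 12.0938 and 12.0015 in L-LY29 and of 12.78 and 12.39 in H-LY29, a difference of −0.52 (standard error 0.12, adjusted p = 0.0206 over all probe sets). That call was lost with equal array medians, with the replicate block, in the methods' unpaired test and with any L-LY29 array left out, at adjusted p-values of 0.0542 to 0.0762.

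The 5 genes whose centred values were nearest to those of *Ptgds* over the 5 arrays were *Ogdh*, *Ube2n*, *Rab11b*, *Bcas3* and *Aldoa*. Their root mean square distances were 0.0131 to 0.0335 log2 units. Small distances were fixed in advance, because the nearest of all genes were picked. Their differences between doses were −1.11 to −1.04, against −1.06 for *Ptgds*, and shared regulation was not tested. Of 21 other prostaglandin genes, 14 were tested, with 5 lower, 4 higher and 5 not called. Their median was −0.19. The shares of 35.7% lower and 28.6% higher were near the 46.6% and 27.1% of all genes. *Ptgis*, the prostacyclin synthase, was at −2.64 (standard error 0.26, adjusted p = 5.43e-04) and *Ptges*, a prostaglandin E synthase, at −1.42 (standard error 0.11, adjusted p = 2.99e-04), on all 3 of its probe sets. The transporter *Abcc4* was at −1.36, the receptor *Ptger4* at −1.07 and the synthase *Ptges2* at −0.50 (adjusted p = 0.00101, 0.00139 and 0.00249). *Ptges2* was at 0.03 after quantile normalization. *Hpgd*, which inactivates prostaglandins, was higher at 2.72 (standard error 0.13, adjusted p = 7.32e-05) on 1 of its 2 probe sets. *Pla2g4a*, which releases arachidonic acid, was higher at 1.29, and the receptors *Ptger1* and *Ptgdr* at 0.90 and 0.55 (adjusted p = 8.44e-04, 0.00416 and 0.0223). Another probe set of *Ptger1* was lower. The H-LY29 mean of the *Ptger1* probe set that was higher, 4.32, was under the filter value of 4.76, so that size is not read as a fold. *Ptgdr* on H-LY29 replicate 2, at 4.65, was under the filter value too. *Ptgdr* did not pass with the replicate block, in the methods' unpaired test, without any one L-LY29 array or without H-LY29 replicate 2, at adjusted p-values of 0.0506 to 0.0973.

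*Mgp*, *Fbln1*, *Dpt* and *Prg4* encode other secreted proteins of the matrix. *Mgp*, matrix Gla protein, an inhibitor of calcification that vessel walls make too, had a log2 signal of 11.40, 11.20 and 11.43 in L-LY29 and of 13.48 and 13.25 in H-LY29. The doses were far apart relative to their spread, with a difference of −2.02 (standard error 0.10, adjusted p = 8.99e-05), a signal 4.06-fold higher in H-LY29. *Dpt*, dermatopontin, which binds decorin and collagen, had 5.66, 5.60 and 5.98 in L-LY29 and 7.86 and 7.83 in H-LY29. Its difference was −2.10 (standard error 0.15, adjusted p = 1.91e-04), a signal 4.28-fold higher in H-LY29.

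*Prg4*, proteoglycan 4 or lubricin, a lubricant of joints and other gliding surfaces, had a signal of 4.93, 5.68 and 6.01 in L-LY29 and of 11.08 and 10.73 in H-LY29. The H-LY29 arrays were close to each other, while the L-LY29 arrays spread by 1.09 and had their lowest value on replicate 1. The difference was −5.37 (standard error 0.35, adjusted p = 1.60e-04). The lowest L-LY29 signal of *Prg4*, 4.93, was near the filter value of 4.76, so the size is not read as a fold. This difference was number 10 from the lowest of all 12945 differences, a rank that rests on a low L-LY29 signal.

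Fibulin 1 (*Fbln1*), a glycoprotein of basement membranes and elastic fibres, has 3 probe sets. The brightest had a signal of 5.58, 5.18 and 6.02 in L-LY29 and of 8.20 and 7.13 in H-LY29. Both H-LY29 arrays were above the L-LY29 arrays but differed by 1.07 from each other. The difference was −2.07 (standard error 0.41, adjusted p = 0.00692). Without H-LY29 replicate 1 it was −1.54 and did not pass, at an adjusted p of 0.0590. A second probe set was at −2.67 (standard error 0.42, adjusted p = 0.00542 over all probe sets), with 5.45, 4.98 and 5.52 in L-LY29 and 8.60 and 7.37 in H-LY29. The third had 5.85, 5.65 and 5.85 in L-LY29 and 6.71 and 5.76 in H-LY29. There the doses overlapped, and −0.46 (standard error 0.31, adjusted p = 0.256 over all probe sets) did not pass.

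Of the 15 probe sets of the members, 12 were lower in L-LY29, 1 was higher and 2 did not pass, where 58.9% of all probe sets were called, 30.3% as lower and 28.6% as higher. The doses did not overlap for 13 of the 15, with L-LY29 below for 12 and above for 1. Over all probe sets they did not overlap for 72.3%, with L-LY29 below for 36.1% and above for 36.2%. The 4 members with several probe sets had no probe set called against the direction of another. The probe sets of *Fbln1* differed in size by 2.21 log2 units.

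**Figure D2:**
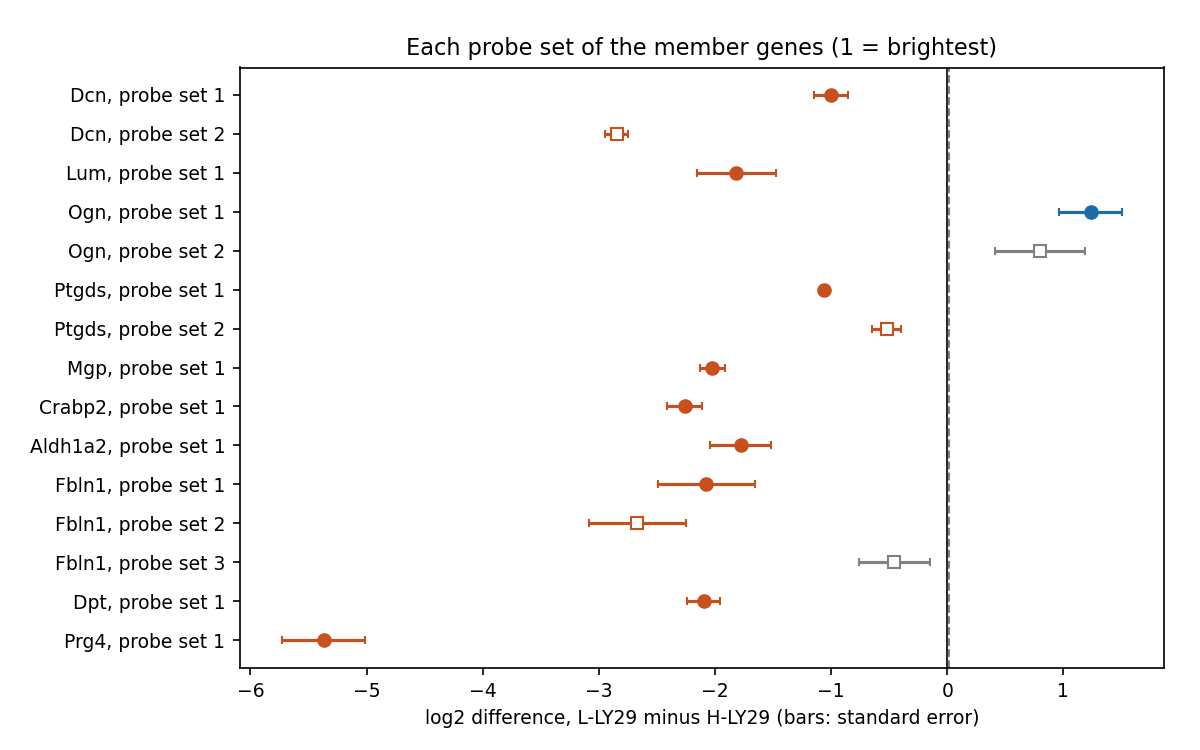
Each of the 15 probe sets of the members with its log2 difference (L-LY29 less H-LY29, x axis) and its standard error from limma over all probe sets. Filled circles are the brightest probe set of a gene, open squares its others, orange is lower, blue higher and grey not called. The dashed line is the median of all probe sets, 0.01, and the probe sets of *Fbln1* lie at −2.07, −2.67 and −0.46.

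The members also differed between the arrays of a dose. H-LY29 replicate 1 was above replicate 2 for 9 of the 10 members and for 14 of their 15 probe sets, against 54.4% of all genes. The median of replicate 1 minus replicate 2 was 0.29 for the members and 0.03 for all genes. *Fbln1*, *Ogn* and *Aldh1a2* differed most, by 1.07, 0.81 and 0.60, and *Crabp2*, *Dpt* and *Ptgds* least, by −0.02, 0.03 and 0.04. *Ogn* was thus higher on H-LY29 replicate 1 with the other members, although its difference between doses was opposite to theirs. Over the L-LY29 arrays the range had a median of 0.41 for the members and of 0.17 for all genes. L-LY29 replicate 1 was the lowest of the L-LY29 arrays for 6 members, and replicate 3 the highest for 7. *Dcn*, with equal values on replicates 2 and 3, is not among those 7. The shares of all genes were not worked out, so these counts are not read as a trait of the members.

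Other fibroblast genes were mostly lower in L-LY29 as well. Of 35 other matrix genes (small leucine-rich proteins, fibulins, microfibril proteins and secreted glycoproteins), 27 were tested, and 21 were lower, 2 higher and 4 not called. Their median was −1.30. The shares of 77.8% lower and 7.4% higher compare with 46.6% and 27.1% over all genes. Lower were *Serpinf1*, a secreted serpin that inhibits vessel growth, at −3.75 (standard error 0.22, adjusted p = 1.19e-04), and *Fmod*, fibromodulin, at −3.49 (standard error 0.23, adjusted p = 1.66e-04), on all 6 of its probe sets. *Tnc*, tenascin C, was at −3.36 (standard error 0.20, adjusted p = 1.32e-04) and *Ccn2*, a matricellular growth factor, at −1.27 (standard error 0.09, adjusted p = 1.85e-04). *Spon2*, spondin 2, was at −1.91 (standard error 0.09, adjusted p = 6.93e-05). *Mfap2*, a microfibril protein, was higher at 1.34 (standard error 0.12, adjusted p = 4.36e-04) on 1 probe set and lower on the other. *Podn*, podocan, a small leucine-rich protein like *Ogn*, was higher at 1.38 (standard error 0.35, adjusted p = 0.0174), and it did not pass in the methods' unpaired test or with any one L-LY29 array left out.

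Of 35 other fibroblast and leptomeningeal genes, 32 were tested, and 25 were lower, 1 higher and 6 not called. Their median was −2.04. Some of these genes, *Twist1* among them, passed the filter only through the signals of 1 dose, and they count here too. Of the tested genes 78.1% were lower and 3.1% higher, against 46.6% and 27.1% over all genes. Transcription factors of mesenchyme and of the meninges were among them. *Twist1* had a signal of 4.47, 4.87 and 4.83 in L-LY29 and of 9.04 and 9.10 in H-LY29 (adjusted p = 4.84e-05). Its L-LY29 mean of 4.73 was under the filter value of 4.76, so the size is not read. *Prrx1* was at −3.96 (standard error 0.19, adjusted p = 7.45e-05), 5 of its 6 probe sets being lower and none higher. *Zic1* was at −2.33 and *Twist2* at −2.24 (adjusted p = 8.85e-05 and 9.39e-05). *Thbd*, thrombomodulin, which endothelium carries too, was at −3.46 (standard error 0.08, adjusted p = 4.05e-05). The transporter *Slc16a11* was the 1 gene called higher, at 2.03 (standard error 0.14, adjusted p = 1.72e-04), and its H-LY29 signals of 4.22 and 3.87 were no brighter than the brightest poly-A probe set. *Pdgfra*, *Gjb6* and *Cldn11* of these lists also mark oligodendrocyte progenitors (OPCs), astrocytes and MOLs.

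**Figure D3:**
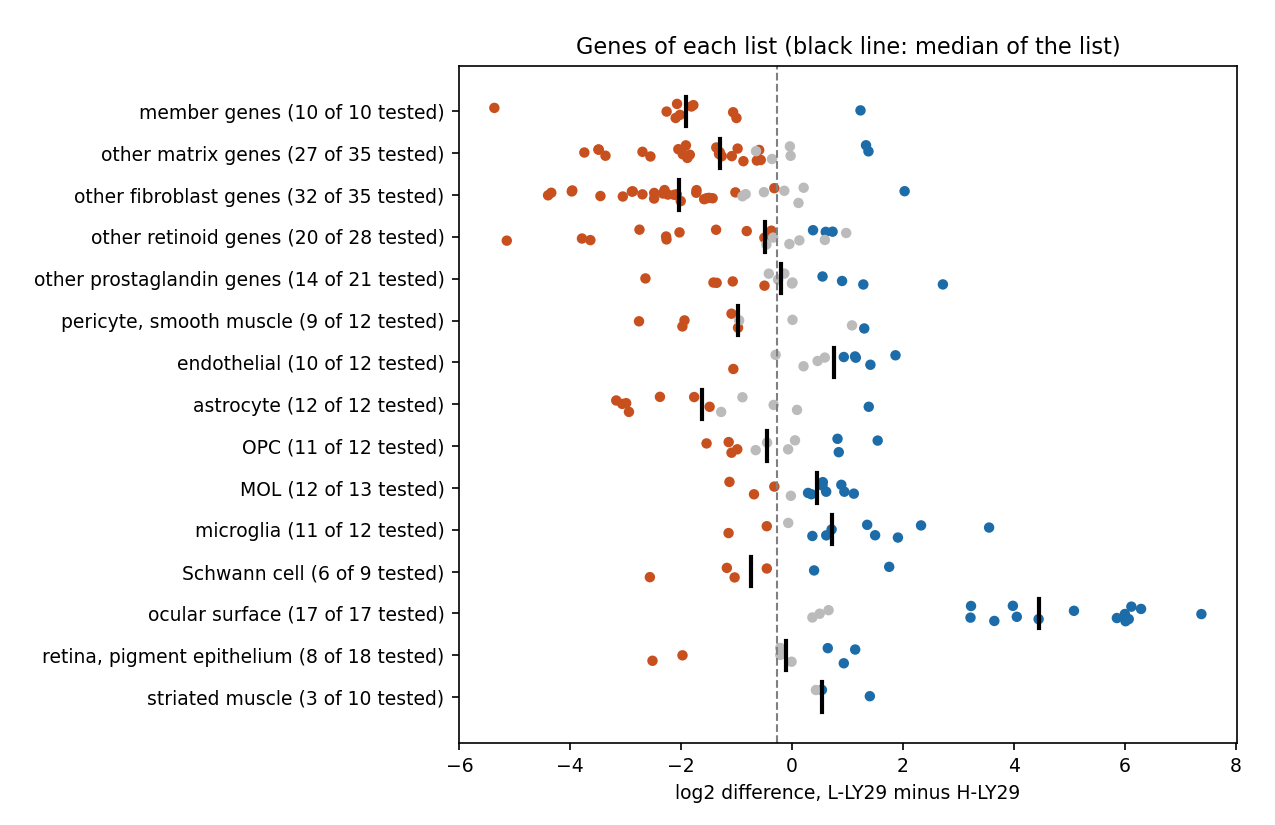
Tested genes (points) by their log2 difference (L-LY29 less H-LY29, x axis), for the members, the other matrix, fibroblast, retinoid and prostaglandin genes and markers of other cell types, with the median of a list as a black line and that of all genes, −0.26, as a dashed line. Orange points are lower, blue higher and grey not called. The members, the matrix and the fibroblast genes have medians of −1.92, −1.30 and −2.04, and astrocyte markers of −1.62. The ocular surface markers lie above 0, and their sizes are not read, because many passed the filter only through L-LY29.

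Markers of other cell types moved with dose on the same arrays, and their part in the members' differences was not tested. Signals are given here as log2 of the summed linear signal of the tested markers, the lowest and highest array of each dose. The counts of markers called stand beside 46.6% lower and 27.1% higher over all genes tested. Ocular surface epithelium was at 12.43 to 15.08 on the L-LY29 arrays and at 8.44 to 8.65 on the H-LY29 arrays, with 14 of 17 markers higher and 0 lower. The differences of all 17 were above 0. *Krt6b* and *Psca* had the smallest adjusted p-values of the list, 5.19e-04 and 8.22e-04. The H-LY29 values of *Psca*, 3.93 and 3.14, were under the brightest poly-A probe set. The H-LY29 means of *Krt6b*, *Psca*, *Elf3* and *Calml3*, 4.29, 3.54, 3.57 and 2.82, were under the filter value of 4.76. These and other markers of the list passed the filter only through their L-LY29 signals, so their sizes are not read. The ocular surface sum was 15.08, 12.43 and 13.44 on L-LY29 replicates 1, 2 and 3. Of these arrays, replicate 1 was the lowest for 6 members, *Ogn* among them, and replicate 2 for 3. Replicate 3 was the highest for 7 members. The shares of all genes were not worked out. The summed signal of the members was 13.81 to 13.85 at the lower dose and 15.15 to 15.30 at the higher. *Ptgds*, whose H-LY29 signal lay near the highest on any array, made up 48.0% to 64.7% of it, and without *Ptgds* the sum was 12.31 to 12.55 and 14.09 to 14.35.

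Pericyte and smooth muscle markers were at 11.39 to 12.69 at the lower dose and at 12.96 to 13.16 at the higher, with 5 of 9 lower, *Vtn* at −1.98 and *Kcnj8* first by adjusted p, and 1 higher, *Des* at 1.30. *Tagln*, which did not pass (adjusted p = 0.171), made up 65.7% to 85.8% of this sum on the 5 arrays, and without it the sum was at 9.85 to 9.92 and 10.37 to 10.66. In the same order of doses, astrocyte markers were at 14.11 to 14.38 and 14.64 to 14.68, with 7 of 12 lower, *Aldh1l1* and *Sox9* first at −3.06 and −3.17, and 1 higher, *S100b* at 1.38. The median difference of the astrocyte markers was −1.62, between −1.30 for the other matrix genes and −1.92 for the members. The second brightest probe set of *Sox9* was at −0.45 and did not pass (adjusted p = 0.190). *S100b* made up 54.1% to 63.8% of the astrocyte sum at the lower dose and 15.9% to 17.9% at the higher. Schwann cell markers were at 11.91 to 12.13 and 12.58 to 12.67, with 4 of 6 lower, *Egr2* first at −2.56, and 2 higher. *Pmp22* made up 78.2% to 88.1% of this sum, which without it was at 9.03 to 9.26 and 10.18 to 10.47. Endothelial markers were at 10.87 to 11.24 and 10.52 to 10.59, with 5 of 10 higher, *Cldn5* first at 1.15, and 1 lower, *Flt1* at −1.06, which did not pass without H-LY29 replicate 1 or 2 (adjusted p = 0.0562 and 0.0850). Microglia markers were at 13.61 to 13.83 and 13.17 to 13.26, with 8 of 11 higher, *Itgam* first at 3.56, and 2 lower. OPC markers were at 12.37 to 12.60 and 12.39 to 12.54, with 4 of 11 lower and 3 higher. MOL markers had 8 of 12 higher and 3 lower. Of 18 retina and pigment epithelium markers 8 were tested, at 8.77 to 8.85 and 9.36 to 9.51, with 2 lower and 3 higher. Of 10 striated muscle markers 3 were tested, at 7.60 to 7.62 and 6.74 to 6.99, with 2 higher.

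The gene differences of all 10 members kept their direction under every alternative run, while the third probe set of *Fbln1*, which did not pass, was at 0.02 without H-LY29 replicate 1. The brighter probe set of *Dcn* was at −0.78 with equal array medians and at −1.09 without H-LY29 replicate 2. *Ogn* ran from 0.80 on its second brightest probe set to 1.64 without H-LY29 replicate 1, and *Prg4* from −5.61 with the replicate block to −5.06 without L-LY29 replicate 1. Of the 10 members, 3 lost their call under 1 alternative each: *Lum* and *Fbln1* without H-LY29 replicate 1 and *Ogn* on its second brightest probe set.

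**Figure D4:**
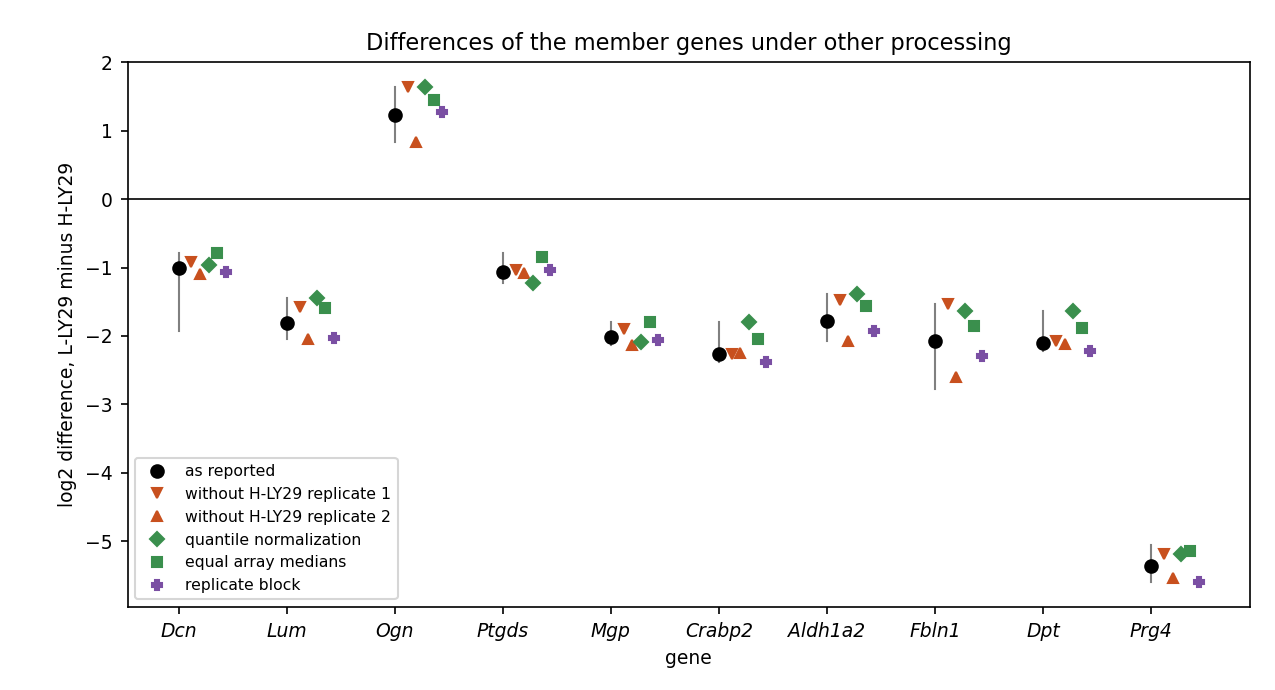
Each member gene by its log2 difference (L-LY29 less H-LY29, y axis) as reported (black circle) and under 5 other settings, with the range over all alternatives but the second brightest probe set as a grey line. *Ogn* stays above 0 and the other members stay below, and without H-LY29 replicate 1 (triangles pointing down) *Fbln1* lies at −1.54 against −2.07.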

How the data were processed

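RNA of cultured optic nerves was labelled as biotinylated cRNA and hybridised to 5 Affymetrix GeneChip arrays, and titles assigned each to its dose. The authors read the arrays with Affymetrix software and normalised them by MAS-5 in GeneSpring, giving the deposited log2 values of 45101 probe sets, 64 of them controls. No scaling target is named in the sources used here. Exactly equal values were shared by 1940 to 8963 probe sets within a dose and by 3206 to 3347 across doses, and whether MAS-5 alone gave these values was not settled.

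Probe sets naming 1 gene were kept where their mean reached the 40th percentile, 4.76, and the brightest stood for its gene. The doses were tested with limma 3.58.1 under R 4.3.3 (two-sided moderated test, variance trend on intensity, Benjamini-Hochberg adjustment, threshold 0.05) over 12945 genes, and over 45037 probe sets without the filter. Scripts were tested on simulated data. The members, the 14 other gene lists and the tests were chosen with earlier results of these data known. The genes named were the members, their relatives and neighbours, up to 5 called genes a direction in each related list and up to 2 in each marker list by adjusted p, and the 5 genes nearest to the brightest member. Some marker genes are given only as counts.

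Alternatives were no filter or one at the 60th percentile, a floor at the 10th percentile, quantile normalization, equal array medians, no variance trend, a replicate block, leaving out single arrays, the unpaired equal-variance test that the methods name for other data, and the mean or second brightest probe set of a gene. The number of arrays limits the precision.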

Additional observations from a re-analysis of the deposited data

How the results depend on the processing

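Of 189 counts and medians recomputed under 15 alternatives, 150 stayed within their limits. The limits for counts were loose: 16 matrix genes lower after quantile normalization, against 21 as reported, was within them. The members' median stayed within its limit if it moved by less than 0.20. The members stood at 9 lower and 1 higher under the other alternatives, with these exceptions. Without H-LY29 replicate 1 it was 7 lower and 1 higher (7 to 9 lower over the arrays left out), and on the second brightest probe set, which 4 members have, 3 lower and 0 higher. The members' median of −1.92 was −1.54 after quantile normalization, −1.70 with equal array medians, −1.59 on the second brightest probe sets and −2.10 to −1.56 with 1 array left out, the last without H-LY29 replicate 1. The median of all genes was 0.07 after quantile normalization and −0.04 with equal medians, against −0.26, and the higher share of the calls 52.4% and 47.6% against 36.8%. With H-LY29 reduced to 1 array, its spread is assumed to be that of L-LY29, and left-out arrays can change which probe set is brightest.

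Deviations of same-numbered arrays from the mean of their dose correlated at 0.00911 and 0.0203. With 2 H-LY29 arrays the crossed pairs only mirror these, at −0.00911 and −0.0203. Whether replicate numbers pair the arrays was therefore not settled. With the replicate block the members stayed at 9 lower and 1 higher, with a median of −2.05, and all genes had 5410 lower and 2950 higher against 6034 and 3514. Member probe sets called lower were 9 to 12 with 1 array left out. Those called higher, 1 as reported (*Ogn*), were 0 with the block and in the unpaired test, 2 after quantile normalization and with equal medians, and 0 to 2 with 1 array left out: 0 without any L-LY29 array and 2 without H-LY29 replicate 1.

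On second brightest probe sets the genes called lower were 11 of 15 matrix, 8 of 11 fibroblast, 4 of 8 retinoid and 1 of 3 prostaglandin genes. Matrix genes called higher were 4 with no filter, 1 in the unpaired test and 0 to 2 with 1 array left out, 0 without L-LY29 replicate 3 and 1 without replicate 1 or 2. Fibroblast genes called higher were 2 with no filter, with equal medians and for the mean of probe sets, 3 after quantile normalization, 0 with the stricter filter or on second brightest probe sets and 1 to 3 with 1 array left out, 3 and 2 without H-LY29 replicates 1 and 2. Retinoid genes called higher were 6 with no filter, 7 after quantile normalization, 5 with equal medians and 2 to 6 with 1 array left out, 6 without H-LY29 replicate 1. Prostaglandin genes called higher were 2 with the stricter filter, 1 on second brightest probe sets and 2 to 5 with 1 array left out, 2 without L-LY29 replicate 2 or 3.

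Signs turned on the second brightest probe set for *Mfap2* (−0.92), *Rxra* (2.52), *Flt1* (0.26), *C1qb* (0.96) and *Drp2* (−1.14), and for *Rxra* on the mean of its probe sets (0.24). After quantile normalization *Ptges2* was at 0.0312 and *Tmem119* at 0.0824. With 1 array left out *Mfap2* ran from −0.85 (without L-LY29 replicate 3) to 1.48, *Rxra* from −2.08 to 2.56 (2.47 and 2.56 without H-LY29 replicates 1 and 2), and *C1qb* from −1.20 to 1.001 (1.001 and 0.92 without them). The third *Fbln1* probe set was at 0.0199 without H-LY29 replicate 1 and at −0.93 without replicate 2. Apart from probe sets that changed, the causes were not tested.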
